A study of Mus musculus with 2 samples.

Results

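In the cultured library of costal-cartilage-derived stem cells (CDSCs), 6024 of 10798 cell barcodes (55.8%) held fewer than 2000 unique molecular identifiers (UMIs), each UMI standing for 1 captured transcript. These shallow barcodes were selected on their total UMIs alone. Together they carried 5077668 UMIs, which is 1.51% of the UMIs in the library. They were compared with 4543 deep barcodes of the same library, which held at least 5000 UMIs and at most 10% of UMIs from the mitochondrial genome. The deep barcodes carried 328914639 UMIs, or 97.8% of the library, so their summed profile is close to that of the library as a whole.

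CDSCs had been digested from the rib cartilage of newborn C57BL/6J mice, CD45.1 or ZsGreen, within a week of birth, and sorted as CD45- CD51+ cells. CD45 marks blood cells and CD51 is an integrin subunit. The cultured library held such cells after expansion to passage 2 to 3, and the primary library of the series held CDSCs that had not been passaged. The labels name bone marrow as the tissue of both libraries, while the study's methods describe rib cartilage. The number of animals behind each library is not given in the sources used here, and there was 1 library per group, so the spread between libraries is unknown and nothing below was tested. Intervals are exact, at 95%, and allow for counting error alone. Those of a share of barcodes take barcodes as independent draws, although barcodes of 1 library are not replicates.

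In droplet sequencing each bead carries 1 barcode that tags the RNA caught with it, and a barcode counts as a cell only after a decision on its UMIs. The mitochondrial genome (genes named mt-) encodes a few mRNAs for subunits of the respiratory chain, and these stay inside the mitochondria. The proteins of the cytosolic ribosome are encoded by short and very abundant nuclear mRNAs. The shares of both classes are widely used to judge single-cell barcodes, and a high mt- share is commonly read as a sign of a damaged cell.

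The shallow barcodes formed a narrow peak at the lowest totals of the library. Their totals ran from 700 to 1993 UMIs with a median of 785 and quartiles of 736 and 875, and they held 366 to 1249 genes each with a median of 589. Most of them, 5336, lay at 700 to 999 UMIs, 583 lay at 1000 to 1499 and 105 at 1500 to 1999. The lowest step, 700 to 724 UMIs, held 1067 barcodes and no deposited cultured barcode was below it. At the limit of 2000 UMIs the highest totals inside were 1993, 1992 and 1989, and the lowest outside were 2001, 2007 and 2007. Few barcodes lay near it, with 34 at 2000 to 2499 UMIs and 135 from 2000 up to 4999. The deep barcodes had a median of 66411 UMIs and 7764 genes. In the primary library 228 of 11896 barcodes (1.92%) were below 2000 UMIs and the lowest held 503.

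**Figure D1:**
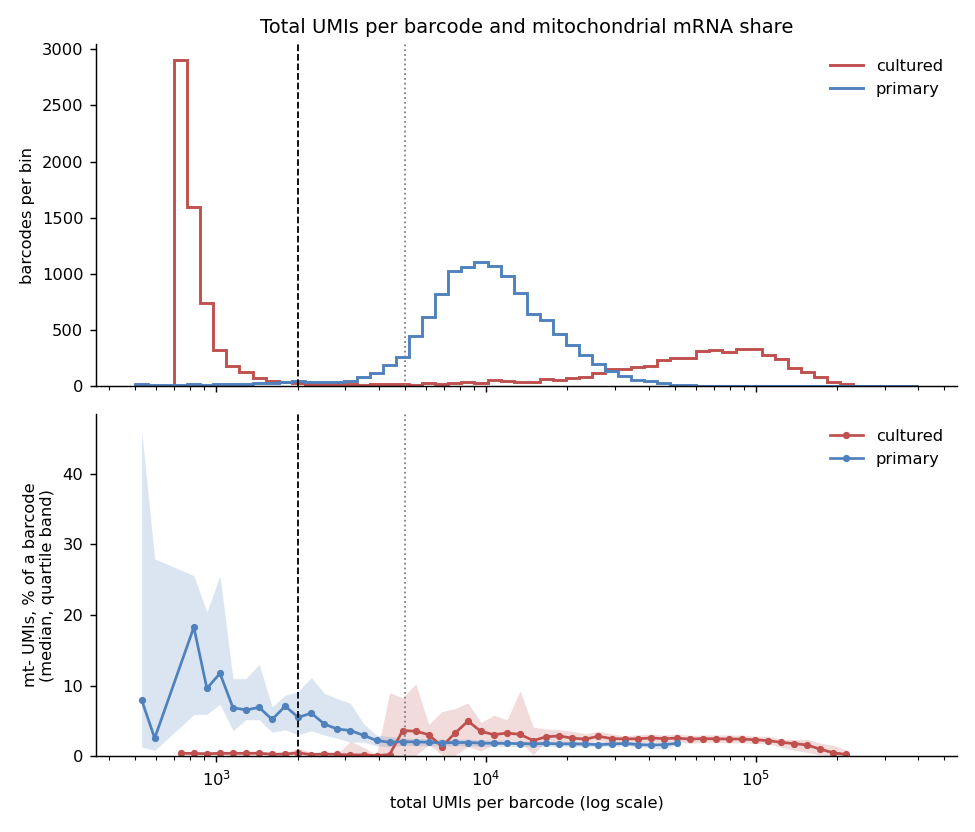
Barcodes per bin of total UMIs (upper panel) and the median share of mt- UMIs per barcode with its quartile band for bins of at least 10 barcodes (lower panel), cultured in red and primary in blue, against total UMIs on a log scale. The dashed line marks 2000 UMIs and the dotted line 5000 UMIs. The cultured library has 1 peak that starts at 700 UMIs and another of deep barcodes around a median of 66411 UMIs, while the primary library has few barcodes under 2000 UMIs. Below 2000 UMIs the mt- share is low in cultured and high in primary barcodes.

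The shallow barcodes shared little with other barcodes by sequence. None of the 6024 was 1 base away from a barcode of at least 5000 UMIs. The primary library held 20 of them (0.332%), 19 of these there at 5000 UMIs or more, against 12 of the 4543 deep cultured barcodes (0.264%) and 32 of all 10798. ZsGreen, a fluorescent reporter that some of the donor mice carried, had 0 UMIs in the shallow barcodes and in the whole cultured library, and 444 CPM (counts scaled to a total of 1000000 UMIs) in the primary library.

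The label of low mitochondrial content held for most of the shallow barcodes. The median mt- share was 0.400% with quartiles of 0.234% and 0.642%, and 5483 (91.0%) were under 1%. Among the deep barcodes the median was 2.35% with quartiles of 1.71% and 2.96%, and the upper limit of 10% had been part of their choice. There were 18 shallow barcodes (0.299%) above 10%, the highest at 58.1%. These 18 held 21.7% of all mt- UMIs of the shallow barcodes, so the summed share rests in part on few barcodes. Not all deep barcodes were above the shallow ones: 513 of them, with a median of 71839 UMIs, were under 0.5%, a limit chosen after the values were seen.

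In the summed profile, mt- mRNAs made up 0.622% of the UMIs of the shallow barcodes (interval 0.615% to 0.629%) and 2.12% of those of the deep barcodes, a log2 ratio of -1.77 (-1.79 to -1.76). All 13 mt- mRNAs were lower in the point estimate, 11 of them at least 2-fold. The largest difference was in mt-Cytb, the cytochrome b subunit of complex III, at 722 CPM in shallow and 3148 CPM in deep barcodes (log2 ratio -2.12, -2.17 to -2.08). The mRNA for the complex I subunit mt-Nd1 differed by a log2 ratio of -2.07, and mt-Co1, a complex IV subunit and the most abundant of the class, by -1.85. The smallest differences were in the rarest mRNAs. The log2 ratio of mt-Atp8 was -0.42 on 120 UMIs in the shallow barcodes. That of mt-Nd6, which is encoded on the other strand from the remaining 12, was -0.13 on 216 UMIs with an interval that includes 0 (-0.33 to 0.07).

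The mt- UMIs were unevenly spread over the shallow barcodes. mt-Co1 had no UMI in 3149 of the 6024 and a highest value of 285, and the 60 barcodes with the most mt-Co1 held 28.1% of its UMIs. Without the 18 barcodes above 10% mt-, the mt- share was 0.489%. Within the shallow barcodes the share differed with depth, from 0.517% at 700 to 999 UMIs over 0.928% at 1000 to 1499 to 1.94% at 1500 to 1999 UMIs. It stood at 6.52% in the 34 barcodes at 2000 to 2499 UMIs and at 2.06% in barcodes of at least 50000 UMIs. The medians per barcode ran the other way, from 0.402% through 0.390% and 0.306% to 0.271% in the first 4 of these bands, so the higher sums rested on few barcodes in each band.

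Against the 513 deep barcodes under 0.5% mt- the direction was the opposite. Their summed mt- share was 0.133% (log2 ratio of shallow over these 2.22), and mt-Cytb stood at 243 CPM in them. Across all genes, 377 were at least 2-fold higher and 17 lower than in these 513, with a median log2 ratio of 0.37 over the genes tested. Against the 4030 deep barcodes with at least 0.5% the log2 ratio of the mt- class was -1.96.

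Outside the mitochondrial genome the summed profile of the shallow barcodes lay close to that of the deep ones. Of 6620 genes with a mean of the 2 CPM of at least 20, 99.3% were within 2-fold and 6100 (92.1%) within 1.5-fold. At least 2-fold higher in the shallow barcodes were 28 genes (0.423% of the genes tested), and at least 2-fold lower were 16 (0.242%), of which 11 were the mt- mRNAs named above. The median log2 ratio was 0.10 with quartiles of -0.11 and 0.30, so a class near 0.10 stood where the typical gene did. Most genes tested thus lay above 0, and the counts of class members above 0 given below are not set against that share. With TMM scaling of the 2 sums every log2 ratio was lower by 0.14, which put 20 genes past 2-fold upward and 23 downward. Against deep barcodes of 5000 to 50000 UMIs the counts were 47 and 92, with 97.9% of genes within 2-fold. Pearson's r of log2(CPM + 1) across these genes, which are not independent replicates and were chosen partly on the deep barcodes' own levels, was 0.969 between shallow and deep cultured barcodes. It was 0.637 between shallow cultured and deep primary barcodes.

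**Figure D2:**
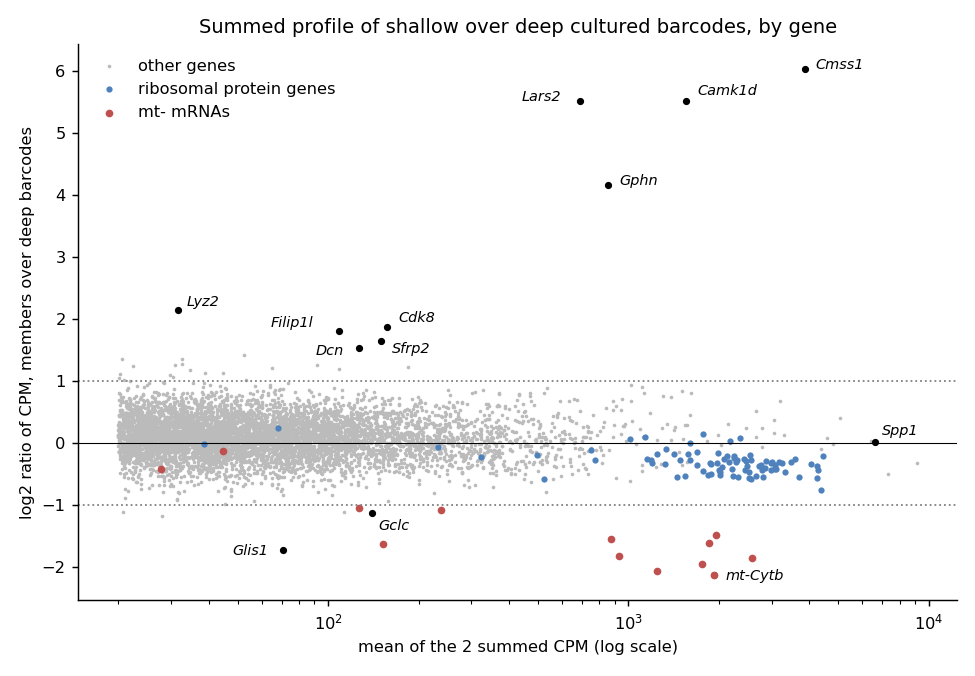
Log2 ratio of CPM, shallow over deep cultured barcodes, against the mean of the 2 CPM on a log scale, for 6620 genes. Dotted lines mark 2-fold. Most genes lie between them, Cmss1, Camk1d, Lars2 and Gphn stand between 4.15 and 6.03, mt- mRNAs (red) lie below, and ribosomal protein genes (blue) lie mostly under 0.

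The exceptions were 4 genes, which stood far above all other genes tested. Cmss1, a gene of small-subunit ribosome assembly, had 7610 CPM in the shallow barcodes (interval 7534 to 7686, 38640 UMIs) and 117 CPM in the deep barcodes, a log2 ratio of 6.03 (6.01 to 6.05). In the shallow barcodes its level exceeded that of Spp1, at 6629 CPM. Camk1d, a calcium/calmodulin-dependent protein kinase, had 3046 against 66.4 CPM (log2 ratio 5.52, 5.49 to 5.55). Lars2, the mitochondrial leucyl-tRNA synthetase, had 1346 against 29.6 CPM (5.51, 5.46 to 5.55). Gphn, the scaffold protein gephyrin, had 1622 against 91.1 CPM (4.15, 4.12 to 4.19). The next gene with a mean of at least 100 CPM, Cdk8, followed at 1.87.

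The 4 genes lie on different chromosomes and 3 of them are very long. In GENCODE M21, an annotation of GRCm38, Cmss1 spans chr16:57302000-57606864 on the minus strand, Camk1d chr2:5293457-5714515 on the minus strand, Gphn chr12:78226379-78684772 on the plus strand and Lars2 chr9:123366927-123462666 on the plus strand. Filip1l, the sixth highest gene with a mean of at least 100 CPM (169 against 48.2 CPM, log2 ratio 1.81), lies wholly inside Cmss1 on the other strand, at chr16:57353093-57573126. Whether strand was used in counting is not given in the sources used here, so reads of Filip1l and Cmss1 cannot be told apart with certainty. No other protein-coding gene overlapped Cmss1, and none overlapped Camk1d, Lars2 or Gphn.

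The 4 genes were found in most shallow barcodes. Camk1d had a UMI in 88.2% of them, Gphn in 72.5% and Lars2 in 64.7%. Cmss1 had at least 1 UMI in 6000 of the 6024, with a median of 6 and quartiles of 4 and 8. In the deep barcodes, which had 84.6 times the median depth, Cmss1 had a median of 7 and quartiles of 4 and 11. Camk1d had a median of 2 UMIs in shallow and 3 in deep barcodes, and Lars2 a median of 1 in both. Gphn had a median of 1 in shallow and 5 in deep barcodes. Taken as a share, the 4 genes made up 1.36% of the UMIs of the shallow barcodes and 0.0304% of those of the deep. A raised share was not confined to the shallow barcodes. The 4 genes made up 0.557% at 2000 to 4999 UMIs. In the 96 barcodes of at least 5000 UMIs and over 10% mt- they made up 0.269%, with Cmss1 at 1253 CPM. Taken per barcode, they gave 11.5 UMIs in the shallow and 22.0 in the deep.

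Across the range of depth the number of Cmss1 UMIs per barcode stayed within a narrow range, while that of the 4 genes together went from 11.1 in the shallowest band to 23.9 in the deepest. Cmss1 had 6.19 UMIs per barcode at 700 to 999 UMIs, 7.80 at 1000 to 1499, 10.0 at 1500 to 1999 and 9.35 at 2000 to 2499. It had 9.97 at 2500 to 2999 and 10.8 at 3000 to 4999. It had 9.72 at 5000 to 9999, 7.60 at 10000 to 19999, 9.47 at 20000 to 49999 and 8.61 at 50000 or more. The mean depth was 791 UMIs in the first of these bands and 94888 in the last. Over the same bands Lars2 went from 1.10 to 2.18 UMIs per barcode, Camk1d from 2.51 to 5.27 and Gphn from 1.32 to 7.84. Spp1 (osteopontin, a secreted phosphoprotein) went from 5.21 to 583 UMIs per barcode. Rps2, a ribosomal protein gene, went from 2.60 to 537, and the actin gene Actb from 4.52 to 402. Of the 4 genes, Gphn followed depth the most, and all 4 followed it far less than these 3 comparison genes, which were chosen after their values were seen.

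**Figure D3:**
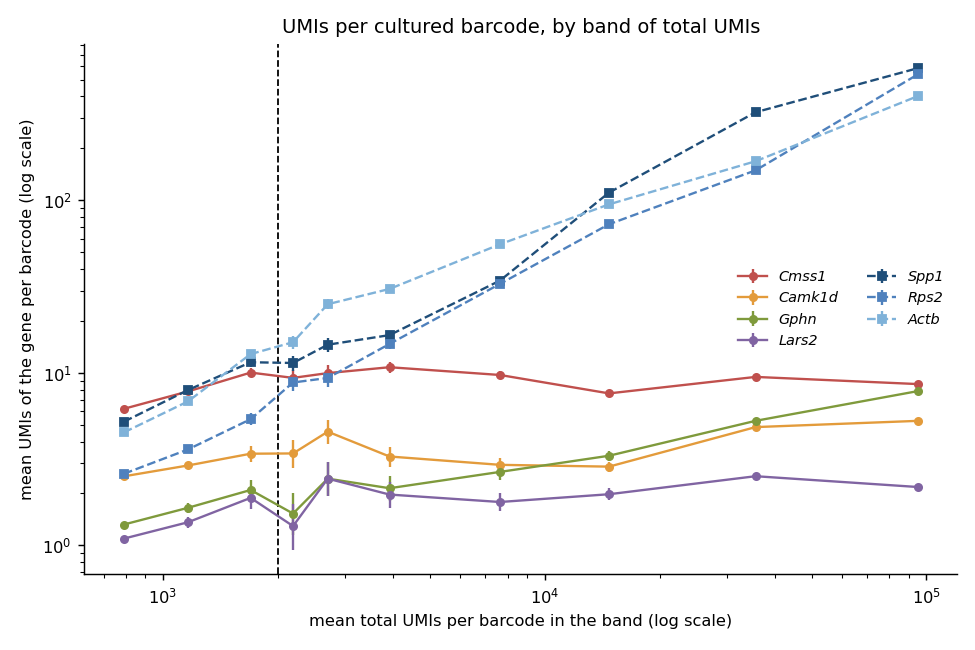
Mean UMIs of a gene per cultured barcode against the mean total UMIs of the barcodes in each of 10 bands, both on log scales, with 95% Poisson intervals. Circles are Cmss1, Camk1d, Gphn and Lars2, squares are Spp1, Rps2 and Actb. Cmss1 stays between 6.19 and 10.8 UMIs per barcode at all depths, while Spp1 rises from 5.21 to 583. The dashed line marks 2000 UMIs.

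The proportions among the 4 genes in the shallow barcodes were not those of the deep barcodes. Per UMI of Cmss1 there were 0.400 of Camk1d, 0.177 of Lars2 and 0.213 of Gphn in the shallow barcodes, and 0.570, 0.253 and 0.781 in the deep. At 2000 to 4999 UMIs the proportions were 0.353, 0.187 and 0.201, closer to the shallow barcodes. Within the shallow barcodes the shares of the 4 genes had a weak correlation with each other, with r between 0.161 and 0.225 over 6024 barcodes. With Spp1 and Rps2 they had r between -0.0651 and -0.00915. These barcodes share 1 library, and at this depth the counts are small.

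In the primary library the share of the 4 genes differed far less between shallow and deep barcodes. There they made up 0.110% of the UMIs of barcodes under 2000 UMIs and 0.0797% of those of the deep barcodes. From 1.17 UMIs per barcode below 1000 UMIs they went to 3.72 at 5000 to 9999 and to 87.6 in the 19 barcodes of at least 50000 UMIs. Cmss1 had no UMI in 184 of the 228 primary barcodes under 2000 UMIs.

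Below the 4 genes the highest with a mean of at least 100 CPM were a mixed group. The rarer Lyz2, described below, had a higher log2 ratio than these, at 2.15. With Cdk8 (a kinase of the Mediator complex, 247 against 67.7 CPM, log2 ratio 1.87) and Filip1l came Sfrp2, a secreted modulator of Wnt signalling, at 228 against 72.7 CPM (1.65), and Dcn, the matrix proteoglycan decorin, at 189 against 65.2 CPM (1.53). The matrix gene Efemp1 had a log2 ratio of 1.23 and Rsrp1, an arginine/serine-rich protein gene, 1.19. The last of the 12 highest, Hsp90aa1 (0.93) and Hspa5 (0.91), were under 2-fold. Per barcode Cdk8 and Dcn followed depth: Cdk8 went from 0.198 to 6.30 UMIs and Dcn from 0.156 to 6.19 between the first and last bands.

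The lowest nuclear genes with a mean of at least 100 CPM were Gclc (the catalytic subunit that starts glutathione synthesis) at 87.4 against 192 CPM (log2 ratio -1.13) and the phosphodiesterase gene Pde10a at 71.7 against 155 CPM (-1.11). The other 10 of the 12 lowest lay between -0.93 and -0.68. They included the transcription factor genes Nr4a2 (-0.83), Jund (-0.79), Klf2 (-0.71) and Ebf1 (-0.71), and Selenow, a small selenoprotein (-0.71). Among all genes tested the lowest outside the mitochondrial genome was the zinc finger gene Glis1, at 32.9 against 108 CPM (-1.72), named after its value was seen.

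The mRNAs of cytosolic ribosomal proteins were modestly lower in the shallow barcodes. The class made up 16.4% of their UMIs and 20.9% of those of the deep barcodes (log2 ratio -0.35, and -0.37 without mt- UMIs in either total). Of 84 members tested, 77 lay below 0 and none reached 2-fold, with a median of -0.32. Rps2 was the lowest, at 3259 against 5477 CPM (-0.75), followed by Rps15a (-0.59), while Rps26 (0.15) and Rpl7a (0.10) lay above 0. The class did not follow total UMIs steadily, with 16.5% at 700 to 999 UMIs, 15.3% at 1000 to 1499, 22.7% at 5000 to 9999 and 17.9% at 20000 to 49999. Mitochondrial ribosomal proteins, which are encoded in the nucleus, had a log2 ratio of -0.11 with 44 of 70 members below 0.

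Nuclear genes for the respiratory chain did not share the difference of the mt- mRNAs. The 84 listed genes for subunits of oxidative phosphorylation made up 1.85% of the UMIs in the shallow and 1.81% in the deep barcodes (log2 ratio 0.03, 0.02 to 0.03). Of 77 members tested 48 lay above and 29 below 0, with a median of 0.09, and none reached 2-fold. Translation factors stood at 0.07 and glycolysis genes at 0.16. Under TMM scaling classes between 0 and 0.14, such as these subunits and the translation factors, lie below 0.

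As summed shares, classes of folding, secretion, collagen processing and non-collagen matrix were slightly higher in the shallow barcodes, with 1 member at 2-fold. Collagens were not above the typical gene. Cytosolic heat shock chaperones had a log2 ratio of 0.33, led by Hsp90aa1 (1333 against 700 CPM) and Hspa8 (1733 against 1036 CPM), while Hspe1, a mitochondrial chaperonin, was at -0.29. The median of their 13 members tested was 0.14, near the 0.10 of all genes tested. Chaperones and translocon of the endoplasmic reticulum had 0.24 with 16 of 27 members above 0 and a member median of 0.25. Hspa5 (BiP, 1447 against 772 CPM) and Canx (calnexin, 0.77) were high and Sec61b (-0.54) was low. Collagen-processing enzymes had 0.29, with Lox (lysyl oxidase) at 2067 against 1177 CPM and a member median of 0.19. Non-collagen matrix proteins had 0.27, with Thbs1 (thrombospondin) at 0.67, Ccn2 at 0.86 and Mgp at -0.06. Collagens as a class were at 0.04, with 10 of 17 members above 0 and a member median of 0.06. The members lay between Col3a1 (0.53) and Col24a1 (-0.69), and the sign of the class turned under some other choices of barcodes. Matrix metalloproteinases were at 0.31.

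Proteasome subunits (log2 ratio 0.31) had 32 of 35 members above 0, with a member median of 0.34. Tubulins with vimentin (0.43) had 11 of 12 above 0, with a median of 0.56. The median of all genes tested was 0.10. Tuba1a stood at 665 against 381 CPM and Vim at 3440 against 2651 CPM, while Stmn1, which binds free tubulin, was at -0.39. Actin cytoskeleton genes were at 0.03 with 15 of 30 above 0. Splicing and hnRNP factors had 0.27 with 33 of 46 members above 0 and a member median of 0.18, against 0.10 for all genes tested. The 30 long transcription regulators and nuclear scaffold genes had -0.04 with 13 of 30 above 0, and Cdk8 was the 1 member at 2-fold. Replication-dependent histone genes had 0.26, with 7 of 8 members above 0. The nuclear-retained lncRNAs could hardly be read, as 2 of 18 listed (Snhg11 and Tug1) were among the features, with 316 UMIs in the shallow barcodes.

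Stress lists had no common direction. Immediate early genes had a log2 ratio of -0.18 with 12 of 19 members below 0 and a member median of -0.06. The p53 targets and apoptosis genes had 0.00 (-0.02 to 0.03) with 12 of 15 above 0 and a member median of 0.28. Iron, metallothionein and antioxidant genes had -0.17, where the ferritin heavy chain Fth1 (6070 against 8551 CPM, -0.49) and Gclc were low and Mt2 (0.70) and Sod1 (0.70) were high. Of their 19 members tested 11 lay above 0 and 8 below, with a median of 0.07.

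**Figure D4:**
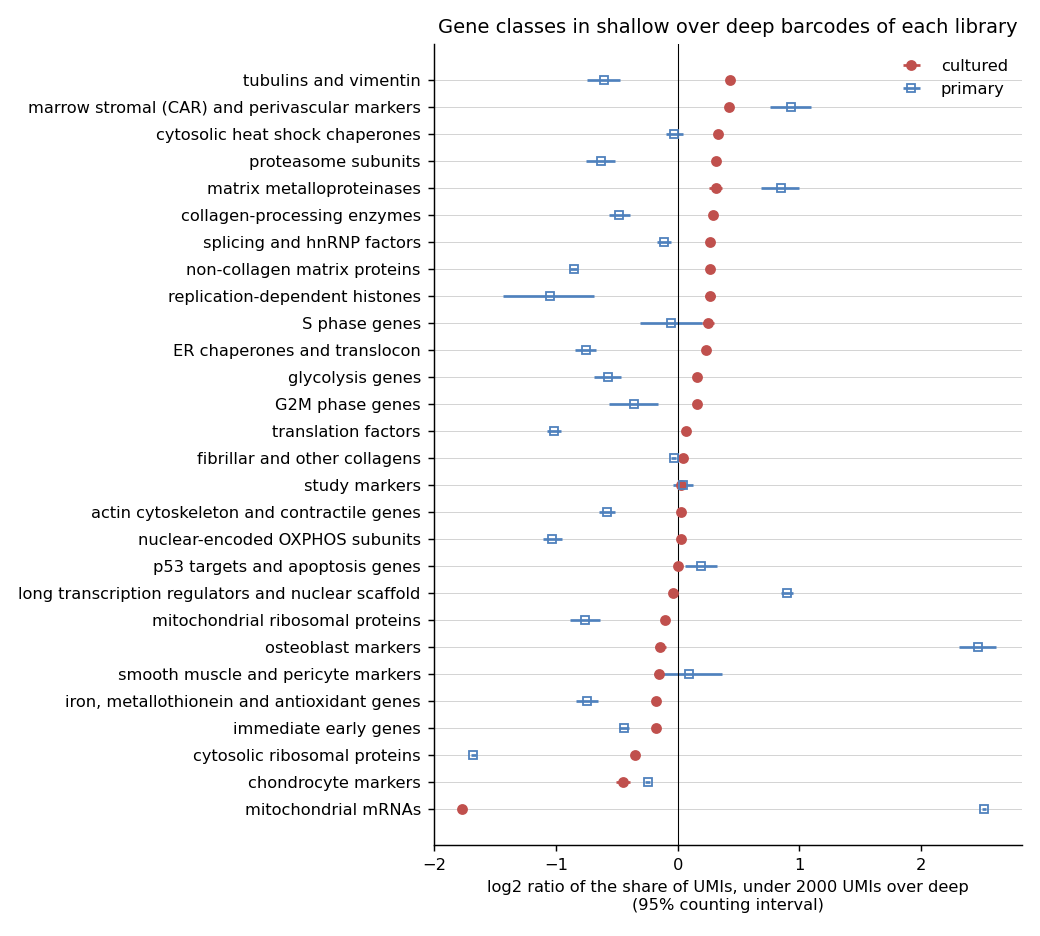
Log2 ratio of the share of UMIs, barcodes under 2000 UMIs over deep barcodes of the same library, with 95% counting intervals, for 28 gene classes with at least 2000 UMIs in the shallow cultured barcodes. Cultured barcodes (circles) lie within 0.45 of 0 for all classes shown but mt- mRNAs at -1.77, while primary barcodes (squares, classes with at least 30 UMIs) range from -1.68 for ribosomal proteins to 2.52 for mt- mRNAs.

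Of 13 cell type markers that the study names, most stood in the shallow barcodes at levels near those of the deep barcodes. Spp1 had 6629 against 6574 CPM (log2 ratio 0.01, with an interval that includes 0), and 5962 of 6024 shallow barcodes held at least 1 UMI of it. Acta2, the smooth muscle actin, had 1273 against 1226 CPM, and the chemokine gene Cxcl12 had 589 against 549 CPM. The mesenchymal transcription factor gene Prrx1 had 503 against 481 CPM and Col1a1 663 against 706 CPM. Ly6a (0.47) and the adhesion molecule gene Vcam1 (40.4 against 19.0 CPM on 205 UMIs, 1.09) stood higher, and Sox9, a transcription factor of cartilage, stood lower (65.6 against 81.3 CPM, -0.31). Pdgfra, Kitl and Emb had log2 ratios of 0.23, 0.22 and 0.16. Acan, the cartilage proteoglycan, had 10 UMIs in all shallow barcodes, with an interval that includes 0. The endothelial gene Cdh5 had 0 UMIs, under the limit of 3 UMIs, which is 0.591 CPM, and its interval reached 0.726 CPM. In the deep barcodes Cdh5 had 0.0547 CPM.

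Marker lists of mesenchymal cell types differed modestly, and those of other cell types were rare in both sets of barcodes. Marrow stromal and perivascular markers had 3145 against 2342 CPM (log2 ratio 0.43). Grem1 alone held 9842 of this list's 15967 UMIs in the shallow and 357870 of 770247 in the deep barcodes, so the sum rests largely on 1 gene. Of 8 members tested 7 lay above 0 with a median of 0.22, Cxcl12 was at 0.10 and Ebf1 at -0.71. Smooth muscle and pericyte markers had 2355 against 2619 CPM (-0.15), but 3 of 4 members tested lay above 0 and 1 below, with a median of 0.12. The log2 ratio was -0.14 for osteoblast markers and -0.45 for chondrocyte markers, each with 2 members tested and both below 0. Col1a1 held 3365 of the 3787 osteoblast UMIs in the shallow and 232130 of 270883 in the deep barcodes. Among chondrocyte markers Col2a1, the main cartilage collagen, stood at 345 against 490 CPM. Adipocyte markers had -0.80 on 368 UMIs. Endothelial markers had 156 UMIs and 0.07 (-0.17 to 0.30), Schwann markers 310 UMIs and 0.62, skeletal muscle markers 241 UMIs and 0.72, and erythroid markers 6 UMIs. The 4 Y-linked transcripts among the features made up 0.0265% of the UMIs in shallow and 0.0232% in deep barcodes.

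Haematopoietic markers were the rare list furthest apart, with 556 UMIs in the shallow barcodes and a log2 ratio of 1.64 (1.52 to 1.77). Lyz2, the lysozyme of macrophages and granulocytes, had 51.6 against 11.6 CPM (2.15), and Pf4 had 20.7 against 7.85 CPM (1.40). Ptprc, which encodes the CD45 that the sort had excluded, had 5 UMIs (log2 ratio 1.54, -0.11 to 2.81) and Cd74 had 0. Csf1r also had 5 UMIs and went the other way (-0.81, -2.44 to 0.42). The intervals of Ptprc and Csf1r include 0. Lyz2 had a UMI in 193 of 6024 shallow barcodes (3.20%) and in 730 of 4543 deep barcodes (16.1%), which are far deeper, and 6 shallow barcodes with at least 3 haematopoietic UMIs held 19.8% of the list's UMIs. In the deep barcodes, 9 with at least 30 such UMIs held 67.9%. Both limits were chosen after the values were seen. Without the 6 alone the log2 ratio of the list was 1.33 and that of Lyz2 1.72. Without the 6 and the 9, Lyz2 stood at 38.2 against 2.84 CPM (3.75) and the list at a log2 ratio of 2.96. These barcodes were left out by the same UMIs that the ratios count, with unlike limits at unlike depths. The ratios without them are thus partly set by the limits, and no conclusion is drawn from the change.

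At the same depth, fewer genes varied strongly between shallow barcodes than between deep barcodes, while the typical gene varied about equally in both. Each barcode was thinned without replacement to 500 UMIs, and the variance over the mean (Fano factor, 1 for Poisson counts) was taken per gene over barcodes. Across 1649 nuclear genes with a mean of at least 0.05 in both, the median was 1.04 in the shallow and 1.03 in the deep barcodes, and the 95th percentile 1.11 and 1.26. The factor was lower in the shallow barcodes for 771 of the 1649. At 1.2 or more were 8 genes in the shallow and 131 in the deep barcodes, and at 2 or more were 0 and 9.

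The genes that vary most between deep cells varied little between shallow barcodes. Spp1 had a Fano factor of 1.41 in the shallow and 6.55 in the deep barcodes. Acta2 had 1.13 and 4.40, the matrix gene Mgp 1.16 and 3.61, Fth1 1.16 and 3.01, and the growth factor binding protein gene Igfbp2 1.22 and 2.81. Cxcl12 had 1.06 and 1.77. The highest nuclear gene in the shallow barcodes was Grem1, a secreted inhibitor of BMP signalling, at 1.52 against 2.29. The mt- mRNAs went the other way, with mt-Co1 at 7.93 in shallow and 1.76 in deep barcodes and 9 mt- mRNAs at 2 or more. Without the 18 barcodes above 10% mt- no gene was at 2 or more.

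**Figure D5:**
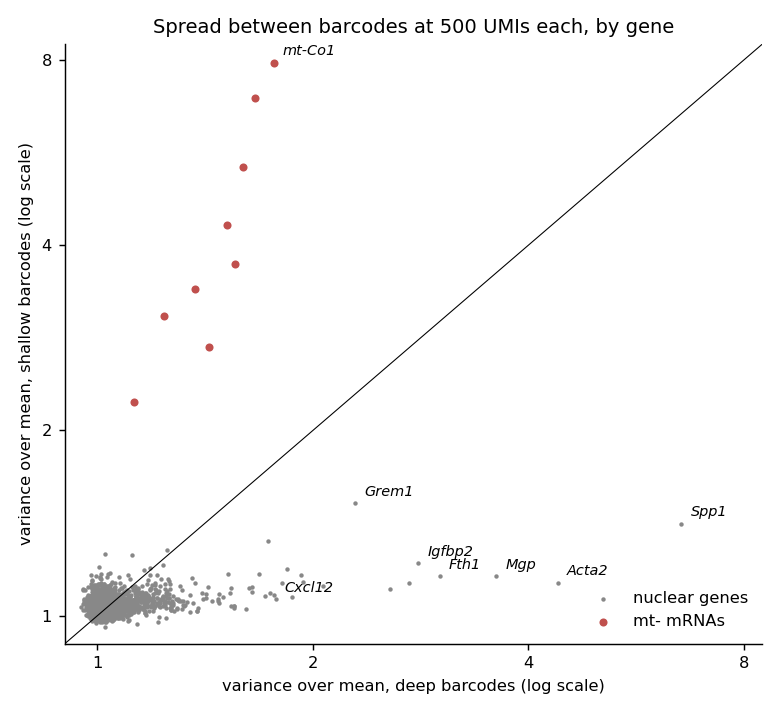
Variance over mean of each gene's UMIs between barcodes thinned to 500 UMIs each, shallow barcodes (y axis) against deep barcodes (x axis) of the cultured library, both on log scales. The line marks equal values. Spp1, Acta2, Mgp, Fth1 and Igfbp2 lie far below it, and mt- mRNAs (red) lie above it.

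The low variation of these genes was most marked at the lowest totals. Split after the values were seen, the 5336 barcodes at 700 to 999 UMIs had Fano factors of 1.33 for Spp1, 1.10 for Acta2 and 1.07 for Fth1 at 500 UMIs. The 688 at 1000 to 1999 UMIs had 2.40, 1.29 and 1.49. The cyclin gene Ccnd2 was at 1.21 and 2.52 in these 2 sets and 1.73 in the deep barcodes. In the 688, 95 of 1650 genes were at 1.2 or more against 7 in the 5336. A set of fewer barcodes also scatters more by sampling, and its part in that count was not tested. At 1000 UMIs each, which the 5336 could not reach, 369 of 3275 nuclear genes were at 1.2 or more in the 688 shallow barcodes and 329 in the deep. In their summed profiles the 2 sets of shallow barcodes differed little. Of 1915 genes with a mean of at least 100 CPM, 10 were at least 2-fold higher at 1000 to 1999 UMIs, all 10 of them mt- mRNAs, and none was 2-fold lower.

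Genes detected per barcode, the ribosomal protein share and UMIs of cycling genes also ranged less between shallow barcodes. At 500 UMIs the shallow barcodes had a median of 405 genes with quartiles of 399 and 413, and the deep barcodes had 397 with quartiles of 378 and 411. The share of ribosomal protein UMIs per barcode had 5th and 95th percentiles of 12.4% and 20.2% in the shallow and 10.6% and 34.6% in the deep barcodes. UMIs of the G2M phase list averaged 1.16 per shallow and 0.984 per deep barcode, with Fano factors of 1.22 and 3.34. No G2M UMI was present in 34.0% of the shallow and 55.2% of the deep barcodes. At least 3 were present in 11.5% (10.7% to 12.3%) of the shallow and 10.5% (9.62% to 11.4%) of the deep barcodes. These intervals take barcodes as independent draws and do not show the spread between libraries. The shares lay further apart at 1000 UMIs each. There at least 3 were present in 35.2% (31.6% to 38.9%) of the 688 shallow barcodes that reached this depth. In the deep barcodes the value was 20.3% (19.1% to 21.5%). In the summed profile the G2M list had a log2 ratio of 0.16 and the S phase list 0.25.

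By gene length, the shortest and the longest nuclear genes lay lowest. The median log2 ratio of the genes tested was -0.08 under 5000 bases, 0.13 at 5000 to 19999, 0.19 at 20000 to 49999, 0.15 at 50000 to 99999, 0.04 at 100000 to 199999 and -0.16 from 200000 bases. Nuclear genes under 5000 bases took 26.5% of the nuclear UMIs in the shallow and 31.2% in the deep barcodes (log2 ratio -0.23). Ribosomal protein genes were not left out of the length bands. They took 16.5% of the nuclear UMIs in the shallow and 21.3% in the deep barcodes, so the short band is not separate from that class. Genes of 20000 to 49999 bases took 17.6% and 15.9% (0.15). Genes of at least 200000 bases took 6.76% and 6.30% (0.10), but without the 4 genes a log2 ratio of -0.16. By exon number, genes with 11 to 20 exons were at 0.15 and genes with 2 to 5 exons at -0.13.

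Barcodes under 2000 UMIs in the primary library differed from their own deep barcodes in another way. There mt- mRNAs had a log2 ratio of shallow over deep barcodes of 2.52, 80 of the 228 (35.1%) were above 10% mt- UMIs, and the median mt- share was 6.95%. Ribosomal protein mRNAs were at -1.68, nuclear oxidative phosphorylation genes at -1.03 and long transcription regulators and nuclear scaffold genes at 0.90. At 500 UMIs these 228 held a median of 358 genes against 347 in the deep primary barcodes. The lowest totals of the 2 libraries differ, and the difference between the libraries was not tested.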

How the data were processed

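Per the study's methods, the authors used Cell Ranger 7.0.0 with mm10/GRCm38. The labels also list another mouse genome build, and gene positions given here are those of GRCm38. The deposited tables hold raw UMI counts per gene and called barcode. The annotation release, the barcode calling settings and the use of intronic reads are not given in the sources used here. The study excluded low-quality cells with limits that are not given, and no barcode was left out here. Of 21849 features, 21707 matched GENCODE M21 by identifier and 21576 were protein coding. Counts were summed over barcodes and scaled to CPM. Counts under 3 were raised to 3 for a ratio, and no ratio was given where both were at or under 3 or where raising set its direction. Intervals are Poisson, Clopper-Pearson and exact conditional. Genes were tested at a mean of at least 20 CPM. Named genes are the 12 highest and 12 lowest at a mean of at least 100 CPM without mt- and ribosomal protein genes, the 13 mt- mRNAs, members of 36 gene classes and 13 study markers, which the study chose on these libraries. The barcodes and lists were chosen with earlier results of these data known. No doublet caller was run. A comparison set of 5000 to 50000 UMIs, which leaves out barcodes of very high UMIs, was an alternative. Scripts were tested on simulated data. Depth was 700 to 1993 UMIs per shallow barcode, so single-barcode values are coarse and sums are precise. Thinning used numpy 2.4.6.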

Additional observations from a re-analysis of the deposited data

Results flagged for a closer look

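Mitochondrial mRNAs differed in opposite directions between shallow and deep barcodes of the 2 libraries, which is why this class is listed here. The log2 ratio of barcodes under 2000 UMIs over deep barcodes was -1.77 in the cultured and 2.52 in the primary library. The difference between the libraries was not tested, since each group is 1 library.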

How the results depend on the processing

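No paired analysis was possible because each group is 1 library. The log2 ratio of mt- mRNAs (-1.77) was -2.04 with members under 1000 UMIs, -1.51 under 3000 UMIs, -2.12 at most 10% mt-, -1.06 with at least 500 genes and 1000 UMIs, -2.04 against 5000 to 50000 UMIs, -1.82 against any mt- share and -2.02 as a mean of shares per barcode. Ribosomal protein mRNAs (-0.35, and -0.37 outside mt- UMIs) were -0.33 and -0.36 under 1000 UMIs, -0.42 and -0.44 with at least 500 genes and 1000 UMIs, -0.20 and -0.23 against 5000 to 50000 UMIs, -0.34 and -0.36 against any mt- share and -0.30 and -0.33 as a mean of shares. Genes at least 2-fold apart (44) were 105 with at least 500 genes and 1000 UMIs, 139 against 5000 to 50000 UMIs, 23 at a mean of at least 100 CPM and 638 with no minimum other than 3 counts, which tests more genes at low counts. Settings added after the values were seen split the deep barcodes at 0.5% mt-. At or above it, mt- mRNAs were -1.96 and ribosomal protein mRNAs -0.29 and -0.32. Below it, where 513 barcodes remained, they were 2.22, -0.70 and -0.69, with 394 genes apart, and the cause was not tested. At 1000 UMIs the median genes were 717 in shallow and 700 in deep barcodes, and 381 and 337 genes, mt- mRNAs included, had a Fano factor of at least 1.2 (17 and 139 at 500 UMIs).

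Small class ratios also changed sign. Collagens were -0.0136 and oxidative phosphorylation genes -0.0244 with at least 500 genes and 1000 UMIs. Against 5000 to 50000 UMIs collagens were -0.18, study markers -0.30 and smooth muscle markers 0.00365. As a mean of shares collagens were -0.0189 and study markers -0.0739, and against at least 0.5% mt- collagens were -0.0223. Against under 0.5% mt- oxidative phosphorylation genes were -0.32, translation factors -0.0430, long regulators 0.56, glycolysis genes -0.0718, actin genes -0.16, osteoblast markers 0.25 and Pde10a 0.20. Of 590 values for other classes and genes, 393 stayed within their counting interval. With 1 library, counting error is the one error measured.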
